A study of Rattus norvegicus with 9 samples.

Results

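Immediate early genes are transcribed within minutes of a stimulus, by transcription factors that are already in the cell. In neurons, calcium entry through synaptic receptors and channels drives them through CREB and the serum response factor, and injury, growth factors and cytokines drive many of them in glia, vessels and immune cells too. Most of them encode transcription factors, which then act on a later set of effector genes. A total of 10 of these genes, Fos, Fosb, Fosl2, Junb, Egr1, Egr3, Arc, Npas4, Nr4a1 and Ier2, were taken by symbol from the 30507 rows of the count table, with the row of the highest total where a symbol was repeated. Of these, 9 had counts, and the row named Junb was at 0 in every library.

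The libraries came from the T9-T11 spinal cord of female wild-type Sprague-Dawley rats at 35 days post-injury (dpi), with 3 rats per group, and the study's methods give their age as 8 weeks when obtained. The Sham group had a laminectomy at T10 without contusion in the methods, whereas its labels say only that it was not treated. The SCI group had a contusion at T10 and carried an electrode plug on the neck, with no electrode in the spine. The SCI + SCS group had the same contusion and a bipolar epidural electrode at T11-T12, through which high-frequency spinal cord stimulation (HF-SCS; 10 kHz, 0.12 mA, 30 µs pulses) was given for 2 h per day from 1 to 35 dpi. A group with an electrode and no current was part of the study and was not sequenced, so electrode and current cannot be told apart. The time between the last stimulation and death is not given in the sources used here.

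Between 62844376 and 88358570 counts were assigned to genes in each library, and 3 counts, taken as the floor, corresponded to 0.0340-0.0477 CPM (counts scaled to the library total). The sample titles and library names do not name a batch. The tissue was bulk, so fewer cells of a type and less RNA per cell cannot be told apart. Oligodendrocyte and neuronal markers, which define spinal cord, were present in every library, and the summed level of 20 neuronal markers was 6037-13027 CPM in the Sham rats, 1080.0-3112 CPM in the SCI rats and 2945-4764 CPM in the SCI + SCS rats. SCI replicates 1 and 3 stood apart, since 13 skeletal muscle genes summed to 4788 and 1415 CPM there, compared with 36.6 CPM in SCI replicate 2 and 43.9-151 CPM in the other groups. Each main p-value sets a difference between 2 groups against the spread between the 3 rats within each group. An exact permutation test of 3 against 3 could not give a p below 0.1.

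The stretches just before the transcription start of Nr4a1, Ier2 and Fosl2 are shown because these were the members that rose after SCI. They are from RefSeq on the GRCr8 build (chr7:134259888-134260137, + strand; chr19:40399123-40399372, + strand; chr6:30039270-30039519, - strand), run 5′ to 3′ along the gene and end at the base before the start. Capitals mark TGACG, the core of the element that CREB binds, its full form TGACGTCA, and GCGNGGGCG, the element of the Egr factors, on either strand, so that a match on the other strand reads CGTCA or CGCCCCCGC.
Nr4a1: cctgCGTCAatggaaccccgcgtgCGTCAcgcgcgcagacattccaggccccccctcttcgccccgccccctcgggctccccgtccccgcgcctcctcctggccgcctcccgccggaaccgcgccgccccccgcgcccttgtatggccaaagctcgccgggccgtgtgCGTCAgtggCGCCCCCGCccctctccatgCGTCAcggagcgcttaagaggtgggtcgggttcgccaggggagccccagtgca
Ier2: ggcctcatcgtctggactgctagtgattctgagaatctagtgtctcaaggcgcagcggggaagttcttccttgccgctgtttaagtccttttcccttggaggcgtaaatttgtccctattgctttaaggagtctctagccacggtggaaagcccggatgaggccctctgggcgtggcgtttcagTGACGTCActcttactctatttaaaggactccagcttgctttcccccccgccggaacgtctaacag
Fosl2: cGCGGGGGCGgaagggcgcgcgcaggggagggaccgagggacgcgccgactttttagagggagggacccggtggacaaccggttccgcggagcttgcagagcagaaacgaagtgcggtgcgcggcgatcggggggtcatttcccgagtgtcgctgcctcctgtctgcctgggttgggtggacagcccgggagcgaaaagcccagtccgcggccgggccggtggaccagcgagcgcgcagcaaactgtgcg

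The Nr4a1 stretch held TGACG at 4 places, whose left ends lay 246, 226, 82 and 53 bases before the start, and GCGNGGGCG at 73 bases. In the Ier2 stretch the full TGACGTCA began 66 bases before the start, and the TGACG matches at 66 and 63 bases lie inside it. Fosl2 held GCGNGGGCG at 249 bases and no TGACG. Over the 33469 stretches of the same length, TGACG was found in 18.2%, TGACGTCA in 1.59% and GCGNGGGCG in 4.29%. Promoters were matched for 7 of the 10 members (Fosb, Npas4, Fosl2, Nr4a1, Egr1, Junb and Ier2), of which Nr4a1, Egr1, Junb and Ier2 held TGACG. The serum response element, known as the CArG box, was found in Egr1 and in 1.5% of all stretches. TGANTCA, the element of AP-1, was in 6.34% of all stretches and in 0 of the 7 members. A match is a run of letters and does not show binding.

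The question of the comparison between the SCI and Sham groups was what a contusion changed at 35 dpi. Of the 9 members tested, 3 rose (Nr4a1, Fosl2 and Ier2) and 1 fell (Arc) with edgeR (quasi-likelihood test; p-values adjusted by Benjamini-Hochberg over 17822 genes). In the same test 24.3% of all genes were called higher and 25.0% lower, and the members' counts are to be read against these shares. The median log2FC of the 9 members was 0.73, compared with 0.02 for all genes tested. With |log2FC|>1 required as well, 0 members were higher and 1 was lower, where 13.4% and 13.6% of all genes were. The 3 SCI libraries all lay above the 3 Sham libraries for 4 members and all below for 1 member, and 32.5% and 31.1% of all genes separated in these ways.

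Nr4a1 (Nur77; ENSRNOG00000007607, chr7:132374840-132385452 on mRatBN7.2) encodes an orphan nuclear receptor that acts without a known ligand in neurons, T cells and macrophages. It stood at 35.5, 51.7 and 43.8 CPM in Sham replicates 1 to 3, at 90.1, 83.7 and 90.2 CPM in the SCI replicates, and at 113, 85.9 and 56.3 CPM in the SCI + SCS replicates. Every injured rat was above every Sham rat, the 3 SCI rats lay close together and the 3 stimulated rats were spread widely. It rose 1.99-fold after SCI (log2FC 0.99 ± 0.15, standard error; adjusted p = 0.00294, edgeR), and this call was kept in all 16 alternatives. It also rose from Sham in the SCI + SCS group (log2FC 0.97 ± 0.26; adjusted p = 0.0348, edgeR), but this call was lost in 6 of 16 alternatives, with the highest adjusted p, 0.105, with a replicate block. SCI + SCS and SCI did not differ beyond their spread (log2FC -0.04 ± 0.23; adjusted p = 0.935, edgeR).

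Ier2 (ENSRNOG00000067274, chr19:23494184-23499211) encodes a small nuclear protein of the early response to growth factors. Its levels were 23.2, 30.2 and 23.0 CPM in the Sham rats, 55.3, 35.6 and 53.0 CPM in the SCI rats and 49.6, 62.3 and 36.2 CPM in the SCI + SCS rats. Again the Sham rats were the lowest, and both injured groups held a rat near 36 CPM that was not far above Sham replicate 2. It rose 1.86-fold in the SCI group (log2FC 0.89 ± 0.20; adjusted p = 0.0112, edgeR) and 1.94-fold in the SCI + SCS group (log2FC 0.96 ± 0.22; adjusted p = 0.0199, edgeR). The second call was lost without SCI + SCS replicate 1 (adjusted p = 0.0689) or replicate 2 (adjusted p = 0.0554), whereas the first was kept in all 16 alternatives. The difference between the SCI + SCS and SCI groups was 0.05 ± 0.24 on the log2 scale.

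**Figure D1:**
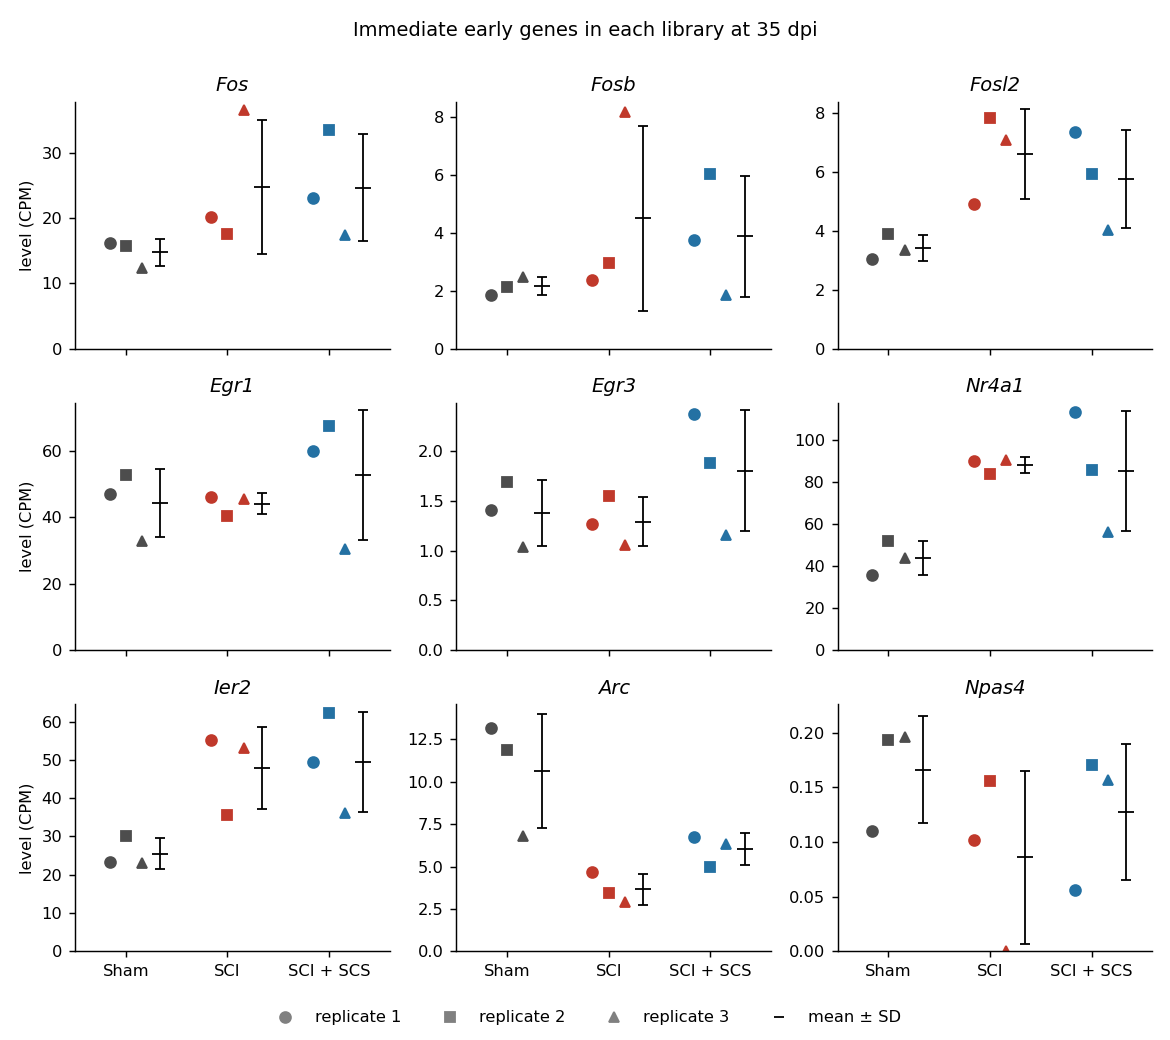
Level (CPM, linear axes from 0) of the 9 members with counts in each of the 9 libraries, by group; symbols mark the replicate and the bar the mean ± SD (n = 3). Nr4a1 lay between 35.5 and 51.7 CPM in the Sham rats and at 56.3 CPM or more in all 6 injured rats, whereas Arc lay at 6.80-13.2 CPM in the Sham rats and at 6.76 CPM or less in the injured rats.

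Fos, Fosb, Fosl2 and Junb encode parts of AP-1, a dimer of a Fos and a Jun protein that binds near many genes of repair, proliferation and plasticity. Fos (ENSRNOG00000008015, chr6:105121170-105124036), the most used marker of recent neuronal activity, stood at 16.2, 15.7 and 12.4 CPM in the Sham rats, 20.2, 17.6 and 36.6 CPM in the SCI rats and 23.1, 33.5 and 17.4 CPM in the SCI + SCS rats. The injured rats all lay above the Sham rats, with a high value in SCI replicate 3 and in SCI + SCS replicate 2. The log2FC from Sham was 0.73 ± 0.29 in the SCI group (adjusted p = 0.0749, edgeR) and 0.74 ± 0.25 with stimulation (adjusted p = 0.0603, edgeR), and neither passed. Without SCI replicate 3 the former was 0.34 ± 0.17, with an adjusted p of 0.179. Without SCI replicate 2 it was 0.92 ± 0.28 and was called (adjusted p = 0.0493, edgeR), where 3421 of 18283 genes were called higher. DESeq2 called Fos in both, with adjusted p = 0.0383 and 0.0190, where it called 50.3% and 39.2% of all genes. SCI + SCS and SCI were level on average, at a log2FC of 0.00 ± 0.33.

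Fosb (ENSRNOG00000046667, chr1:78954115-78961465), whose truncated protein is known to build up in neurons with repeated stimulation, was at 1.85, 2.15 and 2.47 CPM in the Sham rats, 2.37, 2.95 and 8.19 CPM in the SCI rats and 3.77, 6.04 and 1.86 CPM in the SCI + SCS rats. The groups overlapped, and SCI replicate 3 stood far above the others of its group, as it did for Fos. The log2FC of SCI against Sham was 1.04 ± 0.48 (adjusted p = 0.115, edgeR) and 0.28 ± 0.26 without that library. The counts are per gene and do not separate the truncated from the full form. With stimulation the log2FC from SCI was -0.20 ± 0.58, and it was 0.55 ± 0.49 without SCI replicate 3.

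Fosl2 (Fra-2; ENSRNOG00000068412, chr6:24300956-24310481) encodes a Fos protein that is slower and longer lived than Fos. Levels of 3.04, 3.90 and 3.34 CPM were found in the Sham group, 4.91, 7.82 and 7.09 CPM in the SCI rats and 7.34, 5.93 and 4.04 CPM in the SCI + SCS rats. All injured rats were above the Sham rats, although SCI + SCS replicate 3 was only just so. It rose 1.90-fold after SCI (log2FC 0.93 ± 0.23; adjusted p = 0.0166, edgeR), a call that was lost without SCI replicate 2 (adjusted p = 0.0542) or SCI replicate 3 (adjusted p = 0.0570). Its log2FC was 0.75 ± 0.25 for SCI + SCS against Sham (adjusted p = 0.0584, edgeR), and it was called in 2 of 16 alternatives.

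The row named Junb (ENSRNOG00000067725, chr19:23176294-23178035, + strand, listed as a pseudogene) had 0 counts in all 9 libraries and was not tested. An unnamed row (ENSRNOG00000065682, chr19:23175205-23178490, - strand, listed as a long non-coding RNA) covers the same place on the other strand and carries NCBI gene number 24517, which the RefSeq gene table gives to Junb. It was chosen after its values were seen and is not counted among the members. Its levels were 33.1, 46.1 and 42.9 CPM in the Sham rats, 90.4, 80.3 and 138 CPM in the SCI rats and 93.9, 106 and 73.3 CPM in the SCI + SCS rats, with no overlap between Sham and the injured rats. The log2FC was 1.32 ± 0.23 for SCI against Sham (adjusted p = 0.00491, edgeR), 1.17 ± 0.18 for SCI + SCS against Sham (adjusted p = 0.00742, edgeR) and -0.17 ± 0.23 for SCI + SCS against SCI (adjusted p = 0.694, edgeR). Whether counting used strand is not given in the sources used here, so these reads cannot be assigned to Junb or to an antisense transcript.

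Egr1 and Egr3 encode zinc finger factors that bind the same element, and both are induced by synaptic activity, with Egr3 downstream of sustained signaling. Egr1 (ENSRNOG00000019422, chr18:26462981-26466766) was at 47.1, 52.8 and 33.0 CPM in the Sham rats, 46.3, 40.5 and 45.6 CPM in the SCI rats and 60.2, 67.7 and 30.6 CPM in the SCI + SCS rats. Egr3 (ENSRNOG00000017828, chr15:45150567-45154627) was at 1.41, 1.69 and 1.04 CPM, at 1.27, 1.55 and 1.06 CPM, and at 2.37, 1.89 and 1.16 CPM in these groups. In both genes the Sham and SCI groups overlapped, and in the stimulated group 2 rats lay above all SCI rats while replicate 3 did not. The log2FC of SCI against Sham was -0.03 ± 0.18 for Egr1 (adjusted p = 0.916, edgeR) and -0.11 ± 0.30 for Egr3 (adjusted p = 0.775, edgeR), and the sign of each changed in some alternatives. For SCI + SCS against SCI it was 0.27 ± 0.27 for Egr1 and 0.49 ± 0.32 for Egr3, and neither passed (adjusted p = 0.582 and 0.397, edgeR).

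Arc and Npas4 are the members whose expression is most restricted to neurons. Arc (ENSRNOG00000043465, chr7:106555785-106559378), whose protein moves AMPA receptors out of synapses, stood at 13.2, 11.9 and 6.80 CPM in the Sham rats, 4.67, 3.46 and 2.88 CPM in the SCI rats and 6.76, 4.95 and 6.35 CPM in the SCI + SCS rats. The 3 groups did not overlap, with Sham the highest and SCI the lowest, although the lowest Sham and the highest SCI + SCS rat were almost level. Arc fell 2.93-fold after SCI (log2FC -1.55 ± 0.31; adjusted p = 0.00806, edgeR), the only member that fell, and this call was kept in all 16 alternatives. In the SCI + SCS group it was 1.76-fold lower than in the Sham group without passing (log2FC -0.82 ± 0.27; adjusted p = 0.0612, edgeR). Arc was called lower there in 2 of 16 alternatives. These were DESeq2, which called 39.2% of all genes, and edgeR without Sham replicate 3, which called 3335 of 17974 genes lower.

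The 20 neuronal markers all fell after SCI in the same test, with a median log2FC of -2.20, and 15 of them fell from Sham in the stimulated rats. The part of the neuronal markers in the level of Arc was not tested.

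Npas4 (ENSRNOG00000020009, chr1:202281958-202286724), a factor induced by calcium entry and little else, had 7, 17 and 17 counts in the Sham libraries, 8, 11 and 0 counts in the SCI libraries, and 4, 12 and 10 counts in the SCI + SCS libraries. A count of 0 in SCI replicate 3 allows up to 0.0452 CPM by the raw library total, and the lowest Sham library was at 0.110 CPM after TMM scaling. The log2FC was -0.96 ± 0.93 for SCI against Sham and was 0.56 ± 0.97 for SCI + SCS against SCI, and no difference was detected. Without SCI replicate 3 the former was -0.40 ± 0.60. The parts of low counts and of spread between rats in this were not tested.

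**Figure D2:**
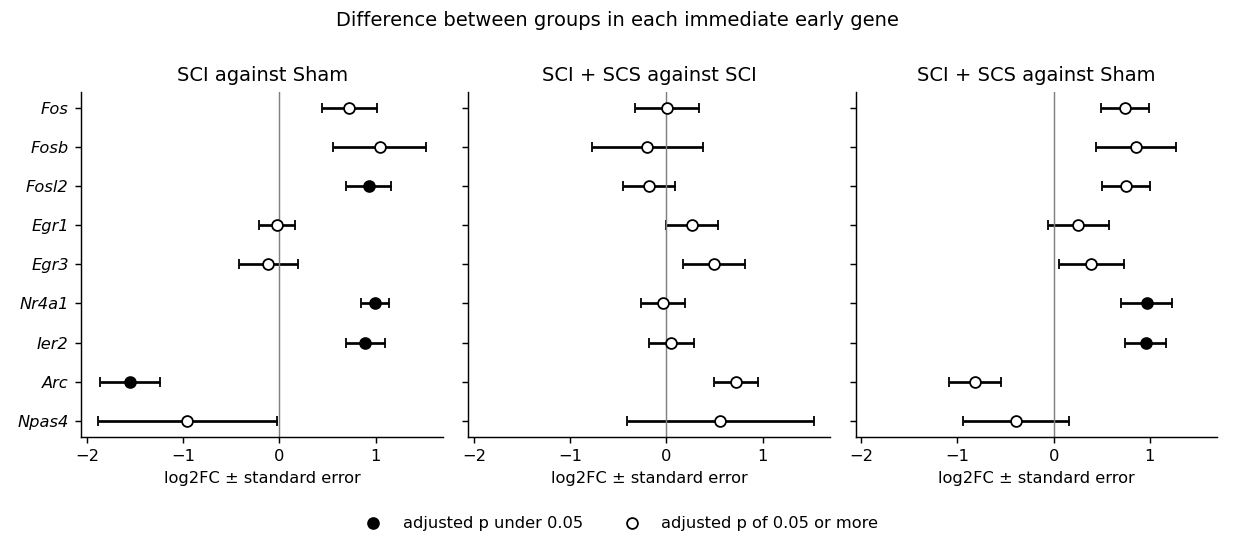
Difference in level (log2FC ± standard error, edgeR, 3 rats per group) of each member in the 3 comparisons; filled points have an adjusted p under 0.05. Nr4a1 (0.99), Fosl2 (0.93), Ier2 (0.89) and Arc (-1.55) are filled for SCI against Sham, 0 members for SCI + SCS against SCI, and Nr4a1 (0.97) and Ier2 (0.96) for SCI + SCS against Sham.

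Stimulated and unstimulated injured rats were compared to ask what HF-SCS changed. With edgeR, 0 of the 9 members were called, and 0.00566% of the 17663 genes tested were, which is 1 unnamed gene (ENSRNOG00000070880, named here after its values were seen). At an unadjusted p under 0.05 there was 1 member, Arc, where 24.2% of all genes reached that level. Arc was 1.65-fold higher with stimulation (log2FC 0.72 ± 0.23; adjusted p = 0.129, edgeR), and in all 3 stimulated rats it was above all 3 SCI rats, a separation upwards that 15.6% of all genes showed. With DESeq2 the adjusted p of Arc was 0.0354, the only member called by that tool, which called 15.7% of all genes, and limma on FPKM called 0 members. Its adjusted p lay between 0.0354 and 0.353 over the 16 alternatives, and the sign was the same in all of them. The neuronal markers moved in the same direction without any call by edgeR, with a median log2FC of 0.998 over 20 genes, against -0.01 over all genes tested. The other members had log2FC values between -0.20 and 0.56, each smaller than 2 standard errors.

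From Sham to SCI + SCS, 2 of the 9 members rose (Nr4a1 and Ier2) and 0 fell, where 16.2% of 17640 genes were called higher and 16.2% lower. The median log2FC of the members was 0.74, compared with 0.01 for all genes tested. All 3 stimulated rats lay above all Sham rats for 4 members (Fos, Fosl2, Nr4a1 and Ier2) and below for Arc, and 27.0% and 26.2% of all genes separated in these ways. The count depended on single rats, being 0 without SCI + SCS replicate 1 or replicate 2 and 5 without replicate 3 (Fos, Fosb, Fosl2, Ier2 and Nr4a1). Genes called higher in these fits were 1206 of 17917 without replicate 1, 1544 of 17939 without replicate 2 and 1788 of 17937 without replicate 3. Genes called lower were 946, 1281 and 1585 in that order. Both comparisons with the Sham group share the same 3 Sham rats.

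**Figure D3:**
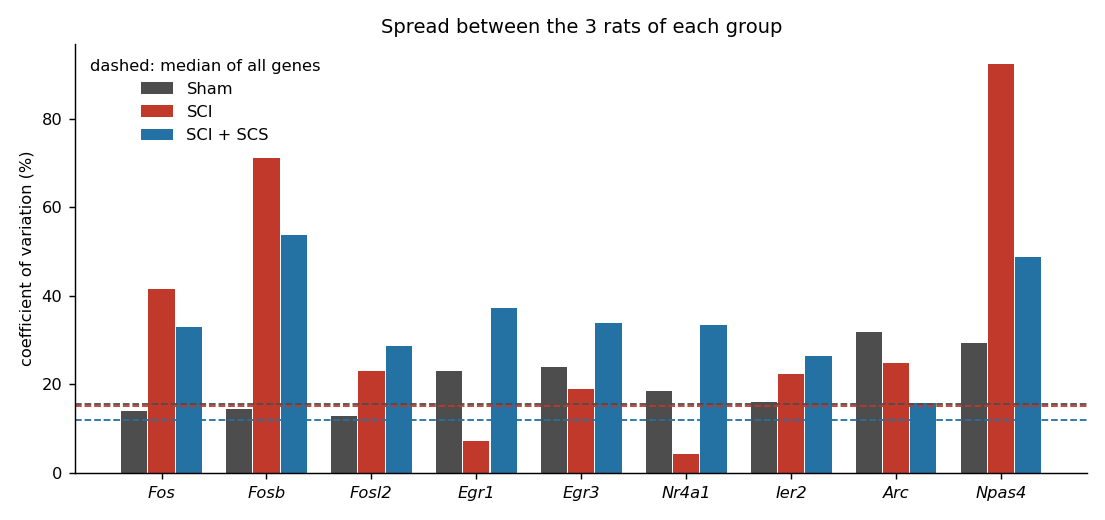
Coefficient of variation (%, SD over mean of CPM, n = 3) of each member in each group, as bars from 0, with the median of all genes as a dashed line per group. In the SCI + SCS group all 9 members are above the median of 11.8%, while Nr4a1 (4.22%) and Egr1 (7.17%) are below it in the SCI group.

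The spread between rats was set beside that of all genes. The median coefficient of variation of the members was 18.5% among Sham rats, 22.9% among SCI rats and 33.4% with stimulation, compared with 15.5%, 15.2% and 11.8% for all genes. In the stimulated group 9 of 9 members were above the median of all genes, as were 6 in the Sham group (not Fos, Fosb and Fosl2) and 7 in the SCI group (not Nr4a1 and Egr1). Fosb spread the widest of the members with over 100 counts, at 71.2% among SCI rats and 53.8% with stimulation. Nr4a1 was the steadiest in the SCI group, at 4.22%, and had 33.4% in the SCI + SCS group. SCI + SCS replicate 3 was the lowest of its group for 7 of the 9 members (Fos, Fosb, Fosl2, Egr1, Egr3, Nr4a1 and Ier2) and the highest for 0. The share of all genes for which this library was the lowest was not computed. The same library had the highest summed level of the 20 neuronal markers among the injured rats (4764 CPM). In the SCI group the highest value was spread over the rats, at 3 members each.

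Levels can be compared between genes only per length, in FPKM (fragments scaled to gene length and library total). In the Sham group the order was Nr4a1 (14.5 ± 2.94 FPKM, SD, n = 3), Egr1 (11.4 ± 2.77), Fos (7.45 ± 1.07), Ier2 (4.07 ± 0.744), Arc (2.68 ± 0.850), Fosl2 (0.704 ± 0.109), Fosb (0.479 ± 0.0780), Egr3 (0.399 ± 0.102) and Npas4 (0.0530 ± 0.0173). Nr4a1 and Egr1 did not differ beyond their spread, nor did Fosb and Egr3. In the SCI group Nr4a1 was again the highest (28.6 ± 2.30 FPKM), and Arc (0.910 ± 0.148 FPKM), Fosb (1.03 ± 0.789 FPKM) and Fosl2 (1.39 ± 0.424 FPKM) did not differ beyond their spread. In the SCI + SCS group Arc (1.56 ± 0.252 FPKM) and Fosl2 (1.22 ± 0.330 FPKM) did not differ beyond their spread.

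Other genes of the same response were taken from lists written for this comparison with earlier results of these data known. Of 30 other early genes, 17 rose after SCI and 0 fell, with a median log2FC of 0.94, where 24.3% of all genes were called higher and 25.0% lower. The largest increases were in Atf3, a stress factor of injured neurons and Schwann cells (log2FC 3.31 ± 0.27; adjusted p = 0.00109, edgeR), and Gadd45g, a stress sensor (log2FC 1.75 ± 0.22; adjusted p = 0.00207, edgeR). With stimulation 11 of the 30 rose from Sham and 0 fell, where 16.2% of all genes were called in each direction, led by the same 2 genes (log2FC 2.69 ± 0.27 and 1.71 ± 0.24). The summed level of the list was 845-1034 CPM in the Sham rats, 1516-1736 CPM in the SCI rats and 1208-1547 CPM in the SCI + SCS rats, and the injured rats did not overlap with the Sham rats.

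Of 20 delayed effector genes, which neurons induce after the early factors, 2 rose (Plk2, log2FC 0.59 ± 0.16, and Baz1a, 0.49 ± 0.16) and 13 fell after SCI, with a median log2FC of -1.48, beside the same 24.3% and 25.0% of all genes. Rasgrp1, a Ras activator (log2FC -2.88 ± 0.62), and Nptx1, a pentraxin that clusters AMPA receptors (log2FC -2.50 ± 0.31), fell the most. The 20 neuronal markers all fell in the same test, with a median log2FC of -2.20, and their part in the levels of this list was not tested. With stimulation 7 fell from Sham, beside 16.2% of all genes, with Rasgrp1 (log2FC -2.07 ± 0.45) and Acan, a proteoglycan of perineuronal nets (log2FC -1.54 ± 0.38), the lowest, and 1 rose (Dclk1, log2FC 0.52 ± 0.11). For SCI + SCS against SCI, 0 of the 19 tested were called and the median log2FC was 0.64, with 10 at an unadjusted p under 0.05, a level that 24.2% of all genes reached.

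**Figure D4:**
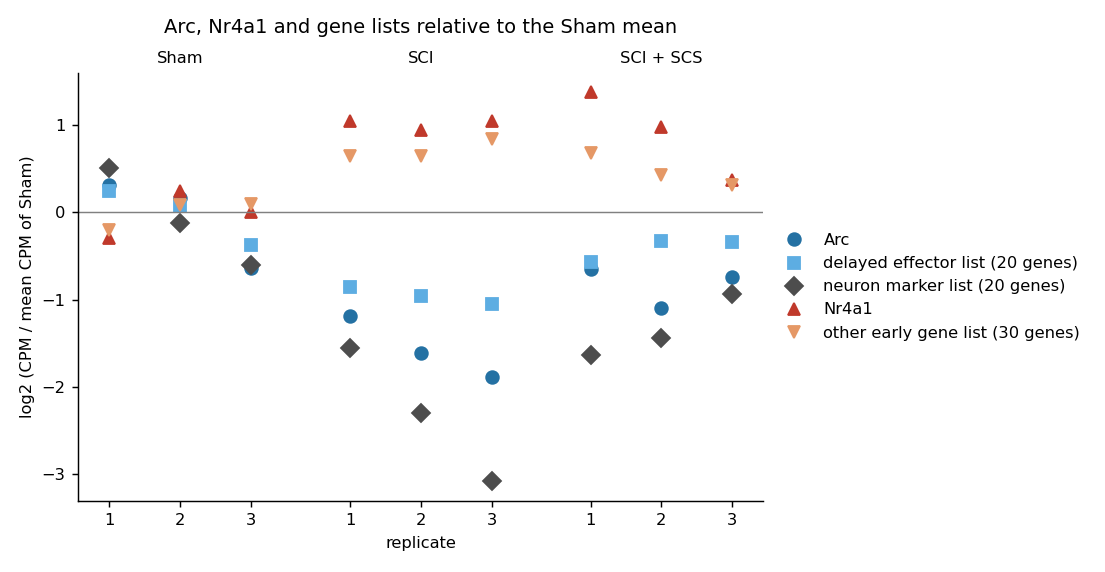
Level of Arc, of Nr4a1 and the summed levels of 3 gene lists in each library, on a log2 axis relative to the mean of the 3 Sham rats (0). Arc, the delayed effector list and the neuronal marker list lie below 0 in all 6 injured rats, and Nr4a1 and the other early genes lie above 0 in all of them.

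Early genes are held in check by inhibitors that they or the same kinases induce. Of 17 such inhibitors, 8 rose and 6 fell after SCI, beside 24.3% and 25.0% of all genes, and the median log2FC was 0.39. Nab2, the corepressor of the Egr factors (log2FC 1.80 ± 0.13; adjusted p = 0.000976, edgeR), and Dusp2, a phosphatase of MAP kinases (log2FC 1.79 ± 0.36; adjusted p = 0.00793, edgeR), rose the most, while Spred2, an inhibitor of Raf (log2FC -1.68 ± 0.39), and Dusp4, a related phosphatase (log2FC -1.40 ± 0.30), fell the most. In the stimulated rats 6 rose from Sham, led by Nab2 (log2FC 1.18 ± 0.15) and Dusp1 (log2FC 0.96 ± 0.24), and 3 fell, led by Spred2 (log2FC -1.46 ± 0.28) and Dusp4 (log2FC -1.01 ± 0.26), where 16.2% of all genes were called each way.

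Of 31 upstream kinases, channels and factors, 6 rose and 15 fell after SCI, with a median log2FC of -0.50, and the share that rose was not above the 24.3% of all genes called higher, whereas 25.0% of all genes were called lower. Elk3, a ternary complex factor that is high in vessels (log2FC 1.28 ± 0.18), and Atf1, a CREB family factor (log2FC 0.68 ± 0.12), rose the most. Camk2a, the calcium/calmodulin kinase of excitatory synapses (log2FC -2.89 ± 0.46), and Grin1, the obligate NMDA receptor subunit (log2FC -2.23 ± 0.32), fell the most. The part of the neuronal markers in these levels was not tested either. In the stimulated rats 4 rose from Sham (the first being Elk3 and Rps6ka1, log2FC 1.02 ± 0.18 and 0.40 ± 0.12) and 5 fell (the first being Grin1 and Prkaca, log2FC -0.99 ± 0.29 and -0.63 ± 0.16), both shares being close to the 16.2% of all genes. With edgeR, 0 genes of these 4 lists were called for SCI + SCS against SCI, and 9 of 30, 10 of 19, 4 of 17 and 11 of 31 had an unadjusted p under 0.05, in the order early, delayed, inhibitors and upstream, where 24.2% of all genes did.

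**Figure D5:**
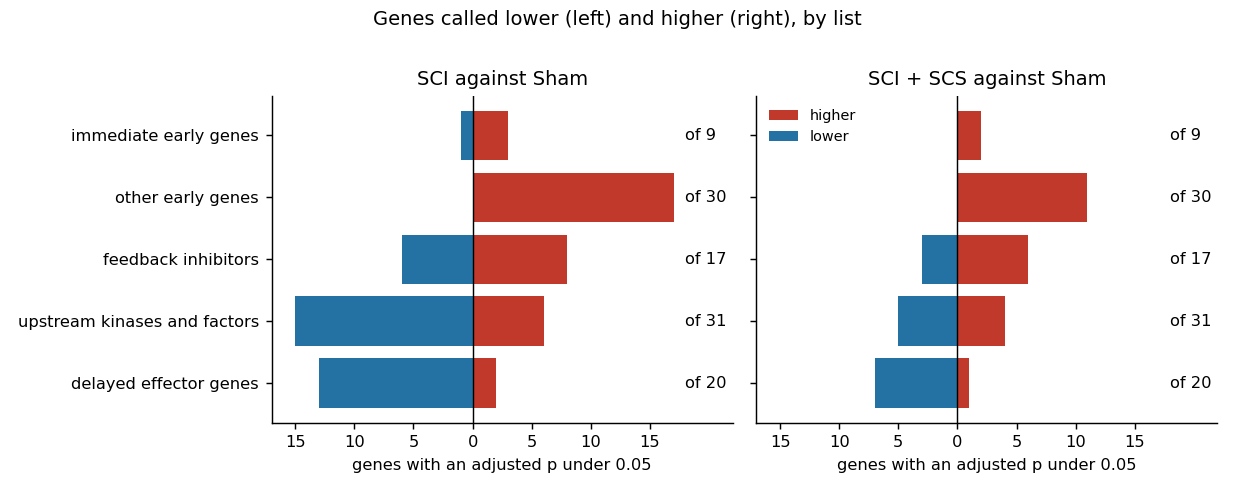
Number of genes with an adjusted p under 0.05 (edgeR), lower to the left of 0 and higher to the right, for the members and 4 lists, with the number tested at the right edge. Of the other early genes 17 were higher and 0 lower after SCI, whereas of the delayed effectors 2 were higher and 13 lower.

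Markers of other cell types moved with injury as well, and all counts here are to be read against the 24.3% of genes called higher and 25.0% called lower. Of 10 macrophage markers 8 rose after SCI and 0 fell, and their summed level was 386-523 CPM in the Sham rats, 2386-3944 CPM in the SCI rats and 1871-2160 CPM in the SCI + SCS rats. Fibroblast markers rose in 7 of 8 genes after SCI, and their sum was 389.6-1990.2 CPM in the Sham rats and 2152-5329.6 CPM in the injured rats. Schwann cell markers rose in 5 of 8 genes, with sums of 4614-7252 CPM in the Sham rats and 6949-14888 CPM in the injured rats, and their list shares Egr2 with the other early genes. Of 8 lymphocyte markers tested 6 rose and 0 fell (median log2FC 2.605), and their sum was 22.2-58.6 CPM in the Sham rats and 110-192 CPM in the injured rats. Of 8 pericyte and smooth muscle markers 5 rose and 2 fell, and their sum was 229-352 CPM in the Sham rats and 379-616 CPM in the injured rats. Of 10 oligodendrocyte markers 9 fell after SCI and 0 rose, and of 10 astrocyte markers 1 rose and 4 fell. Microglia markers rose in 2 of 8 genes and fell in 0, endothelial markers rose in 2 and fell in 1 of 9, and markers of oligodendrocyte precursors rose in 1 and fell in 1 of 5. Adipocyte markers rose in 3, ependymal in 2 and erythrocyte in 1 of the 4 tested in each list, and 0 fell. Skeletal muscle genes rose in 8 of 13 genes tested and fell in 0. With the listed muscle and adipocyte genes removed before normalization, the same 4 members were called for SCI against Sham. That removal left the counts of the members unchanged, so it cannot show whether muscle tissue contributed to them. Without SCI replicate 1 the same 4 members were called too, and without SCI replicate 3 Fosl2 was not. Genes called without SCI replicate 1 were 3710 higher and 3987 lower of 18026. Without SCI replicate 3 they were 3136 higher and 3441 lower of 18312. Of 10 heat shock genes, which respond to handling and stress, 2 rose (Hspb1, log2FC 1.996 ± 0.31, and Hspe1, 0.54 ± 0.18) and 3 fell, with Hsp90aa1 (log2FC -1.39 ± 0.18) and Hsph1 (log2FC -1.17 ± 0.22) the lowest, shares close to those of all genes. The part of these cell types, or of handling, in the levels of the members was not tested.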

How the data were processed

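RNA was measured by paired-end sequencing of mRNA in 9 libraries, grouped by the labels. The authors trimmed reads with fastp 0.23.2 and aligned them with HISAT2 2.2.1 to mRatBN7.2, per the submitters' processing notes, and deposited raw counts per gene, without normalization, and FPKM, scaled to gene length and depth. The counting program, annotation and strand setting are not given in the sources used here. The authors' own sample values were all used, and 0 further value columns were left aside.

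Each comparison took the counts of its own 6 libraries and was fitted with the quasi-likelihood method of edgeR 4.0.16 in R 4.3.3, after TMM scaling and filterByExpr, with Benjamini-Hochberg adjustment over all genes tested and a threshold of 0.05, where the study's methods name DESeq2. The standard error is |log2FC| over the root of F. CPM used TMM over all 9 libraries, and log2 CPM a prior count of 0.5. FPKM entered as log2(FPKM + 0.1) and log2(FPKM + 1) in limma 3.58.1, for genes with a mean of at least 0.1 FPKM, a scale that shrinks the fold changes of weakly expressed genes.

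The 10 genes, the lists and the tests were chosen with earlier results of these data known. All members are named, and from each list at most the 2 higher and 2 lower called genes of largest |log2FC|, with the 5 genes most correlated with each of Fos, Arc and Npas4, of which 1 is not reported here. Of the listed symbols, Crtc2 and Mapk3 among the upstream genes, and 11 marker genes, were not matched to a row of their own and were not analysed here. Alternatives were DESeq2 1.42.0, edgeR with its size factors, a joint fit of all 9 libraries, no filter, at least 10 counts in every library, a replicate block, summed rows of an identifier, removal of muscle and adipocyte genes, FPKM, and leaving out each library. The tests were run on simulated counts with changes larger than those of any member and the same variability setting for every gene. This cannot show how often they detect smaller differences. Molecular identifiers are not mentioned, so floors cover counting error only. Whether the rats were processed separately after dissection is not stated, and the deviations of same-numbered libraries are given with the limits.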

Additional observations from a re-analysis of the deposited data

How the results depend on the processing

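The 4 calls for SCI against Sham (Nr4a1, Ier2, Fosl2 and Arc) kept their direction in all 16 alternatives, and those of Nr4a1, Ier2 and Arc their side of the threshold. For SCI + SCS against SCI, DESeq2 called 1 member and 2595 genes, limma called 19 and 31 genes with pseudocounts of 0.1 and 1, edgeR called 0 genes with at least 10 counts in every library, with the replicate block and with rows of an identifier summed, and leaving out 1 library gave 0-169 genes. For SCI + SCS against Sham, members called were 5 with DESeq2, 1 with the replicate block and 0-5 on leaving out 1 library, and genes called fell from 5710 to 1259 with the block and were 2149-6637 on leaving out 1 library. The cause was not tested.

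Small differences changed sign. Egr1 for SCI against Sham was 0.013 and 0.010 on FPKM with pseudocounts of 0.1 and 1, 0.00094 with the replicate block, and -0.21 to 0.11 on leaving out 1 library, and Egr3 was -0.29 to 0.054. For SCI + SCS against SCI, Fos was -0.0056 with DESeq2, -0.0051 with its size factors, -0.0062 in one fit of 9 libraries and -0.0073 without a filter. On leaving out 1 library the log2FC was -0.28 to 0.38 for Fos, -0.66 to 0.55 for Fosb, -0.40 to 0.0083 for Fosl2, -0.011 to 1.26 for Npas4, -0.30 to 0.18 for Nr4a1, -0.15 to 0.22 for Ier2 and -0.32 to 0.10 for the row with the gene number of Junb. Npas4 was too low for 3 alternatives (FPKM at both pseudocounts and at least 10 counts in every library).

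Equal replicate numbers mark different rats. How far each lay from the average of its group correlated at -0.06 to 0.24 for SCI against Sham. The range was -0.20 to 0.00 for SCI + SCS against SCI and -0.33 to 0.02 for SCI + SCS against Sham. Rats with unequal numbers were not compared in this way, so these values cannot show whether the numbers pair the samples. With 3 rats per group and 35 dpi as the only time, short-lived transcripts were sampled once per rat, and Npas4 had few counts, at 0-17 per library.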

Other observations

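Genes whose log2 CPM varied most like 3 members over the 9 libraries were listed as a description, among 18091 genes, without a test. The libraries share the differences between the groups. For Arc these were Caln1, a neuronal calcium-binding protein (Pearson r = 0.98), Spire2, Smarca1 and Ccne1. For Fos they were Gal3st4 (r = 0.92), Etfa, Slc18b1, Galnt15 and Mkln1, none of which is on the lists of early genes. For Npas4, with few counts, they were Slc24a1 (r = 0.96), AABR07070518.1, Tspear, Wee2 and Smokl3.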
